A study of Mus musculus with 2 samples.

Results

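The GENCODE annotation of the mouse genome lists 2199 genes of the biotype miRNA, leaving out 3 that are named as a tRNA or snoRNA. Of the 2199, 1021 carry a predicted-gene symbol that starts with Gm. The other 1178 are called Mir hairpins here. A Gm hairpin was described here if at least 10 reads fitted it, summed over both libraries. Only reads of 18 nt or more counted, in sense, without mismatch, and fitting no Mir hairpin. This rule kept 294 of the 1021 Gm hairpins, or 28.8%. Another 198 had fewer reads, and 529 had none.

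The reads came from small RNA of 15 to 50 nt, cut from a 15% gel, of adult mouse bone marrow mesenchymal stem cells on the C57BL/6 background. Both libraries were made from immortalized monoclonal lines kept in alpha-MEM with 10% fetal bovine serum and harvested close to confluence, with no other treatment stated. One line was Dicer f/f, titled as wild type, and the other was Dicer -/-, the knockout, called null here. Each genotype had 1 library, so no difference has a replicate check and no test was made. Clone, immortalization and genotype cannot be told apart, and the stated error covers counting only.

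Most miRNAs begin as a hairpin that Drosha releases from a longer transcript and that Dicer then cuts, leaving a duplex of short strands with fixed 5′ ends. Mirtrons skip the Drosha step, since the splicing of a short intron forms the hairpin. Predicted hairpins without a miRNA name were placed by computation, and such predictions can fall on other folded RNAs, such as 7SL, the RNA of the signal recognition particle, small nuclear RNA (snRNA) of the spliceosome, tRNA, ribosomal RNA and small nucleolar RNA (snoRNA). Those RNAs are made without Dicer.

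Members that shared at least 50% of the smaller one's reads were joined, since one read often fits many copies. The 294 members formed 33 families, each named by the hairpin with most reads. Of these families, 18 held 1 gene, and 7 families of 10 or more genes held 249 members. Members of one family are therefore copies that share reads, not independent loci.

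Some of the hairpins that carry the results are printed from the GENCODE annotation, and capitals mark the commonest read of the family in the 2 libraries. The opening set lies on, or shares sequence with, a known small RNA. Gm47295 and Gm47287, both on chromosome 12, overlap the 7SL gene Rn7s1. Gm44469 (chr14:18200675-18200753, + strand, GRCm38 as for every position here) is intergenic, Gm44456 (chr13:21924928-21925016, −) overlaps the RefSeq tRNA gene n-TStga2, and Gm47301 (chr4:149817764-149817823, +) overlaps the 5S rRNA gene n-R5s193.
Gm44469: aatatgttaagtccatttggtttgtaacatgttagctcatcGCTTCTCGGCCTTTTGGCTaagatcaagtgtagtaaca
Gm44456: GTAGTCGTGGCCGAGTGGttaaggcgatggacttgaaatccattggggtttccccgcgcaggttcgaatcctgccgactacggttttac
Gm47301: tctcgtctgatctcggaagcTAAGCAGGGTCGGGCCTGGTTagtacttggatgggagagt

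The next hairpins stand for large families of dispersed copies. Gm22369 (chr19:9855319-9855422, +) is intergenic and Gm23638 lies in an intron of Mllt10, on the other strand.
Gm22369: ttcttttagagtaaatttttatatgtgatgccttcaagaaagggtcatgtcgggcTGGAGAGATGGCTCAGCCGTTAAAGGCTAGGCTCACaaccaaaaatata

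The last set holds reads that fitted few or no other transcripts. Gm27740 (chr17:33886676-33886733, −) lies in an intron of Kifc1 and Gm24315 (chr2:10480165-10480291, +) in an intron of Sfmbt2, both on the host gene's strand. Gm22196 lies opposite an intron of the lncRNA Gm30835 and Gm23935 (chr16:11144125-11144181, +) opposite an intron of Zc3h7a.
Gm27740: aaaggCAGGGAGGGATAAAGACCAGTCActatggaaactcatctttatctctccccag
Gm24315: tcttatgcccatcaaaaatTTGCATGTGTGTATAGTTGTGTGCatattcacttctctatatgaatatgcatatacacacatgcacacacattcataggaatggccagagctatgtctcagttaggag
Gm23935: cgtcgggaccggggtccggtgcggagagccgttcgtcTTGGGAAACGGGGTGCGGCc

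The f/f library held 9943989 reads and the null library 6291599 reads, from 5 to 36 nt. Levels are in CPM, counts scaled to an equal library total. Where no read was seen, 3 reads are taken as the limit, which is 0.302 CPM for f/f and 0.477 CPM for null. The Mir hairpins summed to 595400 CPM for f/f against 19720 CPM for null, a 30.2-fold lower level (95% interval 30.03 to 30.37). All 11 genes of a mesenchymal miRNA list had reads, and their summed level was 212700 CPM for f/f against 5130 CPM for null. The haematopoietic, endothelial, muscle and neural lists were lower in null as well, from 6.235 to 225 CPM for f/f and from 1.272 to 13.35 CPM for null. The epithelial list went the other way, like the Gm hairpins, with 3.721 CPM (37 reads) for f/f against 45.3 CPM (285 reads) for null. Of the 5 muscle genes, 3 had reads, and all genes of the other lists did. Their part in the results below was not tested.

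The Gm hairpins held 4757 reads in f/f and 11966 reads in null. That was 478.4 CPM against 1902 CPM, 3.976-fold higher in null (95% interval 3.844 to 4.112), while Mir hairpins were lower. As shares of all reads these were 0.04784% (95% Clopper-Pearson interval 0.04649 to 0.04922) in f/f and 0.1902% (0.1868 to 0.1936) in null. Without the Gm47295 family the log2 ratio, null over f/f, was 3.18, and without reads of another RNA class it was 1.14. Of the 10 families left in the latter case, Gm47295, which overlaps the 7SL gene Rn7s1, still had the most reads, at a log2 ratio of 0.21. The direction of the sum depended on the scale. In CPM the summed log2 ratio came to 1.99 over all members. Scaled to reads that fitted any annotated transcript it was 3.75, and scaled to snoRNA and snRNA reads it was -0.14.

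In CPM, 25 of 33 families (75.8%) were more than 2-fold higher in null, beside 20.6% of all 321 hairpin families with 10 or more reads and 14.2% of the 288 Mir families. The number more than 2-fold lower was 3 (9.09%), beside 71.3% of all families and 78.5% of Mir families, and 5 (15.2%) were within 2-fold, beside 8.1%. The median log2 ratio was 2.38 over the 29 Gm families with reads in both libraries, -3.77 over 242 Mir families and -3.21 over all 271. With families at 0 set to the limit of 3 reads, the medians were 2.40, -3.66 and -3.09. A member could reach the 10 reads in the null library alone, so these counts describe the members and support nothing further. Scaled to snoRNA and snRNA reads, 11 Gm families (33.3%) were more than 2-fold higher, beside 8.41% of all families, and 8 (24.2%) were more than 2-fold lower, beside 80.1%.

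**Figure D1:**
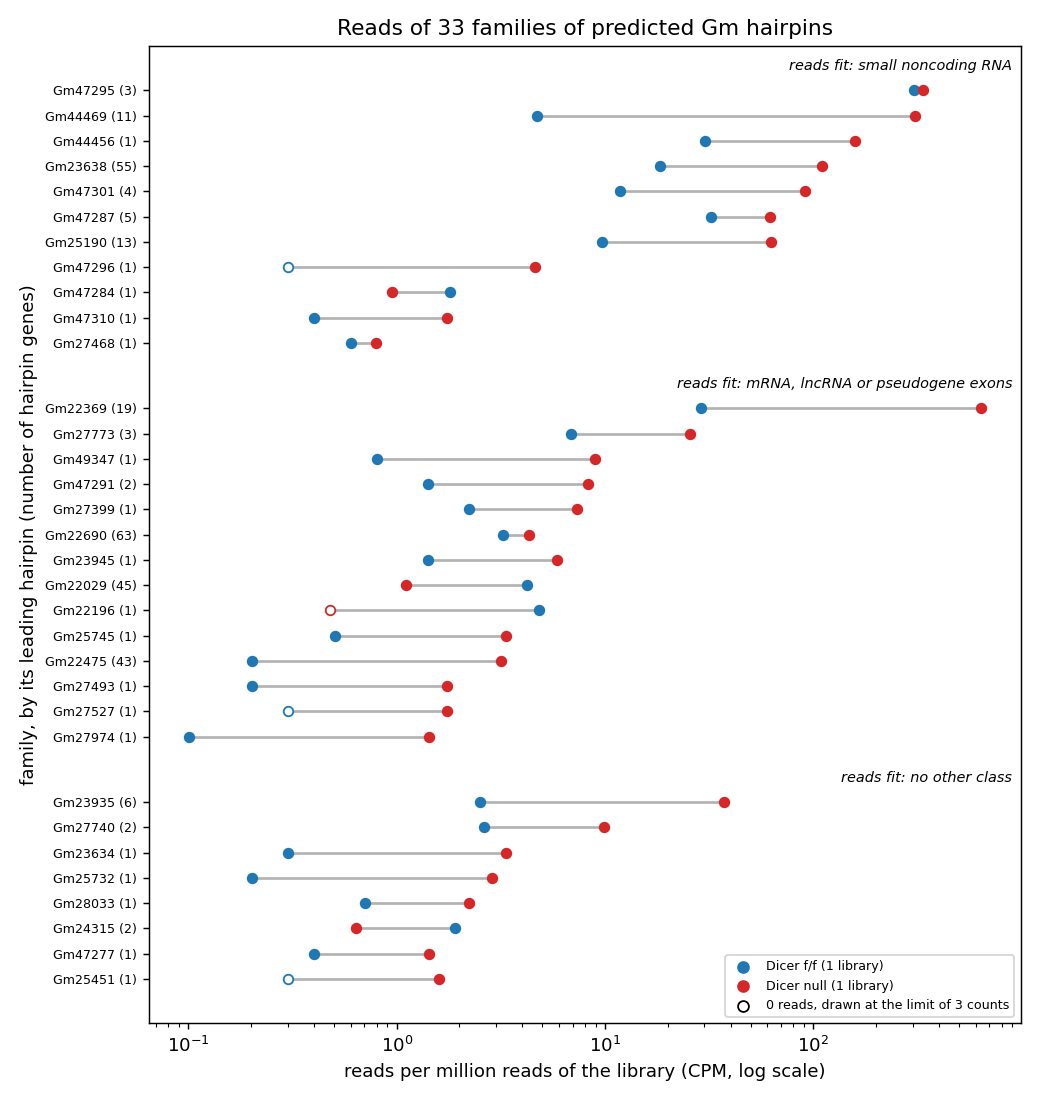
Level of each of the 33 Gm hairpin families in the Dicer f/f (blue) and null (red) library, in CPM on a log scale, grouped by the other RNA class that its reads fit; open circles are 0 reads, drawn at the limit of 3 counts. The line is longest for Gm44469 among the small noncoding RNA families and for Gm22369 among the exon families, while the points of Gm47295 nearly coincide.

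The threshold itself passed through a run of similar genes. At 8 and 9 reads, just outside, stood 14 and 15 genes, and at 10, 11 and 12 reads, just inside, stood 21, 5 and 39. Outside were Gm22464 (0 reads in f/f, 8 in null), Gm22643 (0 and 9), Gm22679 (2 and 6), Gm22852 (1 and 8) and Gm22860 (1 and 8). Inside were Gm22048 (6 and 6), Gm22132 (1 and 9), Gm22232 (6 and 6), Gm22234 (0 and 11) and Gm22414 (2 and 8).

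Most Gm hairpin reads fitted another annotated RNA as well. The share was 88.52% (95% interval 87.58 to 89.41) in f/f and 93.44% (92.98 to 93.88) in null. In f/f, 75.55% of the reads fitted another small noncoding RNA, 12.97% fitted only exons of mRNAs, lncRNAs or pseudogenes, and 11.48% fitted no other class. In null these shares were 53.86%, 39.58% and 6.56%. Mir hairpin reads rarely fitted another small noncoding RNA, 0.04331% in f/f and 1.817% in null. They did often fit exons, 68.41% in f/f and 41.41% in null, so a fit to an exon alone does not set Gm hairpins apart.

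**Figure D2:**
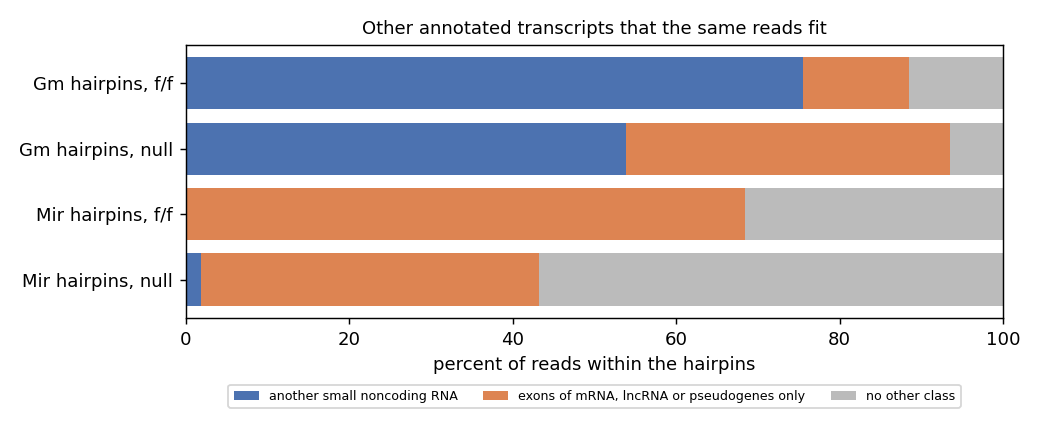
Share of hairpin reads, in percent, that also fit another small noncoding RNA (blue), only exons of mRNAs, lncRNAs or pseudogenes (orange) or no other class (grey), for Gm and Mir hairpins in each library. Blue fills 75.55% and 53.86% of the Gm bars and 0.04331% and 1.817% of the Mir bars.

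By the class that at least 50% of its reads fitted, each family fell into 1 of 3 groups. The group of small noncoding RNA held 11 families with 96 genes, at 4130 reads in f/f and 7135 in null (2.731-fold in CPM, 2.627 to 2.838). It includes the dispersed copies of Gm23638 (55 genes) and Gm25190 (13 genes) and the poly-T read of Gm27468 (1 gene). Their small RNA matches were most often to the predicted genes Gm25574 or Gm27956, and their commonest reads occur in 978, 167 and 1101 genes. The exon group held 14 families with 183 genes, at 541 and 4459 reads (13.03-fold, 11.91 to 14.27). The group with no other class held 8 families with 15 genes, at 86 and 372 reads (6.837-fold, 5.394 to 8.748). Of these reads, the Gm23935 family held 25 in f/f and 234 in null. The group also counts Gm47277 (4 and 9 reads), in the snoRNA gene Gm24698, with 46.15% of its reads fitting a small noncoding RNA. On the snoRNA and snRNA scale the log2 ratios of the 3 groups were -0.68, 1.58 and 0.65, so the small noncoding RNA group alone turned its direction. In CPM, 7 of 11, 11 of 14 and 7 of 8 families were more than 2-fold higher in null, beside 20.6% of all hairpin families.

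Read lengths of the Gm hairpins differed from those of Mir hairpins in f/f. Reads of 21 to 23 nt, the length of Dicer products, made up 16.21% (95% interval 15.17 to 17.29) of Gm hairpin reads in f/f and 91.87% (91.85 to 91.89) of Mir hairpin reads. In null the shares were 20.33% (19.61 to 21.07) and 20.06% (19.84 to 20.28). The Gm share depended on the reads counted. It was 40.3% in f/f and 65.2% in null with the last 3 nt of each read not matched. That setting left out all reads of 18 to 20 nt, so its shares cannot be set beside the others. Without reads of another class the Gm share was 30.1% and 27.3%, with Gm47295 still the family with most reads. That setting thus kept reads of a hairpin that overlaps the 7SL gene Rn7s1. The commonest Gm length in f/f was 25 nt, with 1083 reads or 22.77%, of which 997 were 1 sequence of the Gm47295 family. In null it was 36 nt, the longest read possible, with 3065 reads or 25.61%, of which 2689 were 1 sequence of the Gm22369 family. No Gm hairpin read had 34 or 35 nt in either library, and reads at 36 nt can stand for longer RNA.

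**Figure D3:**
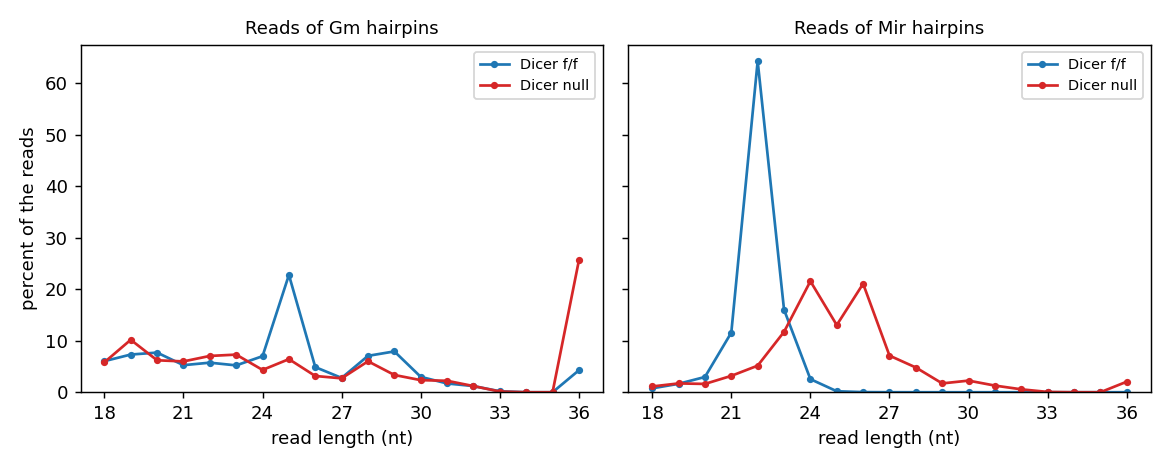
Share of reads at each length from 18 to 36 nt, in percent, for Gm hairpins (left) and Mir hairpins (right), Dicer f/f in blue and null in red. Mir reads in f/f peak at 22 nt with 64.26%, whereas Gm reads peak at 25 nt in f/f and at 36 nt in null.

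The base at the 5′ end was T (U in the RNA) in 10.91% of Gm hairpin reads in f/f and 39.34% in null, beside 58.31% and 63.63% for Mir hairpins. In the exon group, which holds the 36-nt sequence of Gm22369 that begins with T, the share was 32.72% in f/f and 77.86% in null. In the group of small noncoding RNA it was 7.748% (6.951 to 8.606) and 16.16% (15.31 to 17.03), and in the group with no other class 25.58% and 22.31%.

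Ends were measured on each side (arm) of the hairpin's midpoint, for a family's leading hairpin and arms with 10 or more reads. In f/f, 24 Gm arms had enough reads, and 48.01% (46.54 to 49.48) of their reads began at the arm's commonest 5′ end. In null, 30 Gm arms had enough, with 54.52% (53.6 to 55.44). For Mir hairpins the shares were 96.49% in f/f and 91.54% in null. Over arms, the median share was 43.43% in f/f and 40.18% in null for Gm, and 94.53% and 80.49% for Mir hairpins. At the 3′ end the gap was narrower, with medians of 37.87% and 40.63% for Gm and 63.1% and 41.46% for Mir arms. Both arms had 10 or more reads in 6 of 18 Gm families in f/f and 7 of 23 in null, and in 165 of 260 and 69 of 176 Mir families.

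**Figure D4:**
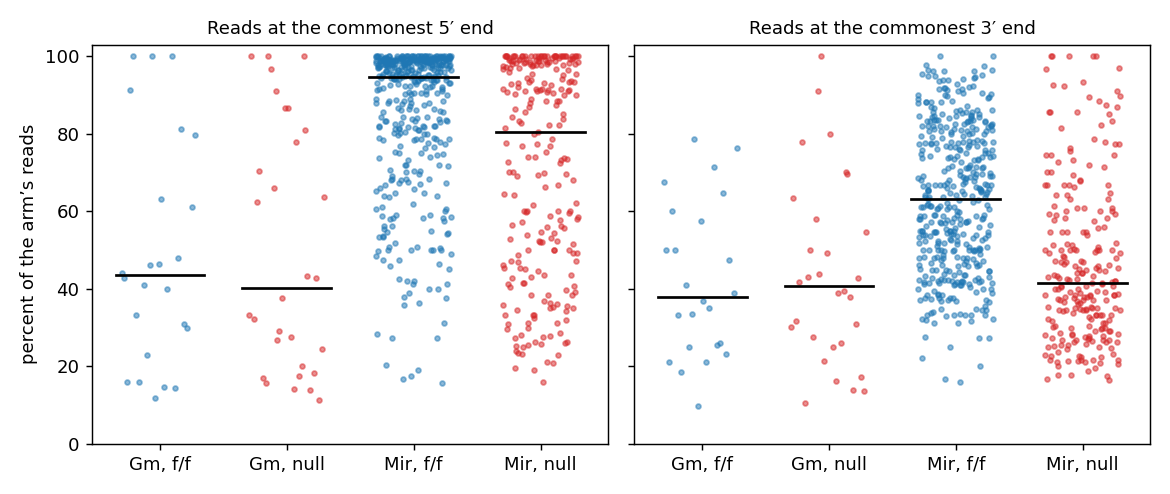
Each point is 1 hairpin arm with 10 or more reads and shows the percent of its reads that begin (left) or end (right) at the arm's commonest position; black bars are medians over arms. At the 5′ end the Gm medians (43.43% in f/f, 40.18% in null) lie under those of Mir hairpins (94.53% and 80.49%).

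The 7SL RNA, a scaffold of the particle that guides secretory proteins to the endoplasmic reticulum, accounted for the family with most reads over both libraries. The Gm47295 family (Gm47295 and Gm47299 in the 7SL genes Rn7s1 and Rn7s2, and Gm24105) had 3038 reads in f/f and 2106 in null, or 305.5 and 334.7 CPM. It was among the 5 families within 2-fold (1.096-fold, 1.036 to 1.159), and its log2 ratio was -2.0 on the snoRNA and snRNA scale and -0.24 with the last 3 nt not matched. Its commonest read of 25 nt, 997 in f/f and 377 in null, covers bases 276 to 300 of the 300 bases of Rn7s1, which is the 3′ end of that RNA. Reads that end at base 78 of the hairpin run past that end, such as a 26-nt read with 135 reads in f/f and 69 in null. Of the family's reads, 15.22% fitted no other class. On the hairpin, 67.46% of the 3′ arm's reads ended at base 77 in f/f and 43.79% in null, while 43.99% and 26.78% began at base 53. The 3′ arm held nearly all reads (3030 of 3038 in f/f, 2076 of 2106 in null).

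Many more 7SL reads fitted when their last 3 bases were left out of the match. These were a further 8973 reads in f/f and 4262 in null. The commonest of them had 2906 reads in f/f and 989 in null, more than the commonest exact read.

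A separate family, Gm47287 with 5 genes, lay farther inside 7SL. Its commonest read of 28 nt covers bases 170 to 197 of Rn7s1 and had 204 reads in f/f and 186 in null. The family had 321 reads in f/f and 390 in null (32.28 and 61.99 CPM, 1.92-fold, 1.652 to 2.233), with a log2 ratio of -1.19 on the snoRNA and snRNA scale. Of the reads on its 3′ arm, 79.73% in f/f and 66.01% in null began at base 28 of the hairpin, and 76.41% and 58.07% ended at base 55. Although most reads shared these ends, 5.919% of its reads in f/f and 13.85% in null had 21 to 23 nt.

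Reads that fitted U2 snRNA, which pairs with the branch point of introns, had the widest ratio among families with 100 or more reads. The Gm44469 family has 11 genes on 8 chromosomes. Of its reads, 99.8% fitted a small noncoding RNA, with U2 (Rnu2-10) as the named match. The commonest read occurs in 20 genes, of the snRNA and mRNA classes. The family had 47 reads in f/f and 1943 in null, or 4.726 and 308.8 CPM, 65.34-fold higher in null (48.94 to 89.23). On the scale of snoRNA and snRNA reads its log2 ratio was 3.90. The commonest read of 19 nt covers bases 4 to 22 of the 191 bases of U2 and had 8 reads in f/f and 583 in null, and a companion of 22 nt that starts 3 bases earlier had 4 and 226. Both are shown because they fix the position at the 5′ end of U2, with bases 2 to 8 in capitals.
Gm44469, 19 nt: gCTTCTCGgccttttggct
Gm44469, 22 nt: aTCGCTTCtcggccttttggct
In null, 62.36% of the reads on that arm began at base 42 of the hairpin, and in f/f 47.83% of 46 reads did. The 5′ arm of the hairpin had 0 reads in both libraries. The null reads were short: 1032 had 18 to 20 nt, 692 had 21 to 23 nt, 219 had 24 to 35 nt and none had 36 nt.

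The tRNA family is 1 gene, Gm44456, whose reads fitted the serine tRNA n-TStga1 (its name gives the anticodon TGA). It had 301 reads in f/f and 991 in null, or 30.27 and 157.5 CPM (5.204-fold, 4.569 to 5.94). The commonest read of 18 nt, 116 in f/f and 188 in null, begins at base 1 of the hairpin, as did 91.19% of the 5′ arm's reads in f/f and 86.68% in null. The 3′ arm had 108 reads in f/f and 608 in null, and the 5′ arm had 193 and 383. Mature tRNAs carry an added CCA that the gene does not encode, so a read that holds it cannot fit the hairpin exactly. Without the last 3 bases, a further 5602 reads in f/f and 21157 in null fitted Gm44456, and 98.5% and 97.15% of them ended in CCA. One sequence made up 5427 of these in f/f and 20241 in null, and its matched part ends at base 82 of the 89-base hairpin.
Gm44456, CCA in capitals: tcgaatcctgccgactacgCCA
Counted this way Gm44456 held the most reads of any family, above Gm47295.

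5S rRNA, the small RNA of the large ribosomal subunit, is covered by the 4 hairpins of the Gm47301 family. The family had 117 reads in f/f and 572 in null (11.77 and 90.91 CPM, 7.727-fold, 6.323 to 9.51). Its commonest read of 21 nt covers bases 53 to 73 of the 119 bases of Rn5s and had 0 reads in f/f and 47 in null. The starts were scattered. The commonest start of the 3′ arm held 14.29% of its reads in f/f and 32.18% in null, and that of the 5′ arm held 22.92% and 20%. At the 3′ end, base 41 was the commonest on both arms in null, with 39.49% of the 5′ arm's reads and 31.61% of the 3′ arm's. In f/f it was base 40 on the 5′ arm (25%) and base 54 on the 3′ arm (25.4%). The arm counts also differed. In f/f the 3′ arm had more reads (63 against 48) and in null the 5′ arm (390 against 174). The midpoint cuts through the null reads that end at base 41, so these counts do not measure place alone.

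snoRNAs, which guide chemical changes in rRNA, lie under several single-gene families. RefSeq snoRNA genes overlap 7 members, and 16 members overlap a RefSeq small RNA gene of any kind (4 scRNA, 2 miRNA and 1 each of rRNA, tRNA and misc_RNA besides). Gm47296 (chr11:5038204-5038307, +) overlaps the snoRNA Gm24958 and had 0 reads in f/f and 29 in null, at least 15.28-fold higher by the limit of 3 reads. Gm47284 (chr7:109521249-109521368, +) overlaps Gm24888 and had 18 and 6 reads (1.81 and 0.9537 CPM), with an interval of the ratio, 0.1712 to 1.385, that includes 1. Gm47310 had 4 and 11 reads. The reads of Gm47291 and Gm49349, 14 in f/f and 52 in null (5.87-fold, 3.206 to 11.47), all had 24 to 35 nt and fitted an exon of Taf1d, and RefSeq places a snoRNA gene at both hairpins. Gm49347, which overlaps Snora74a, had 8 and 56 reads.

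**Figure D5:**
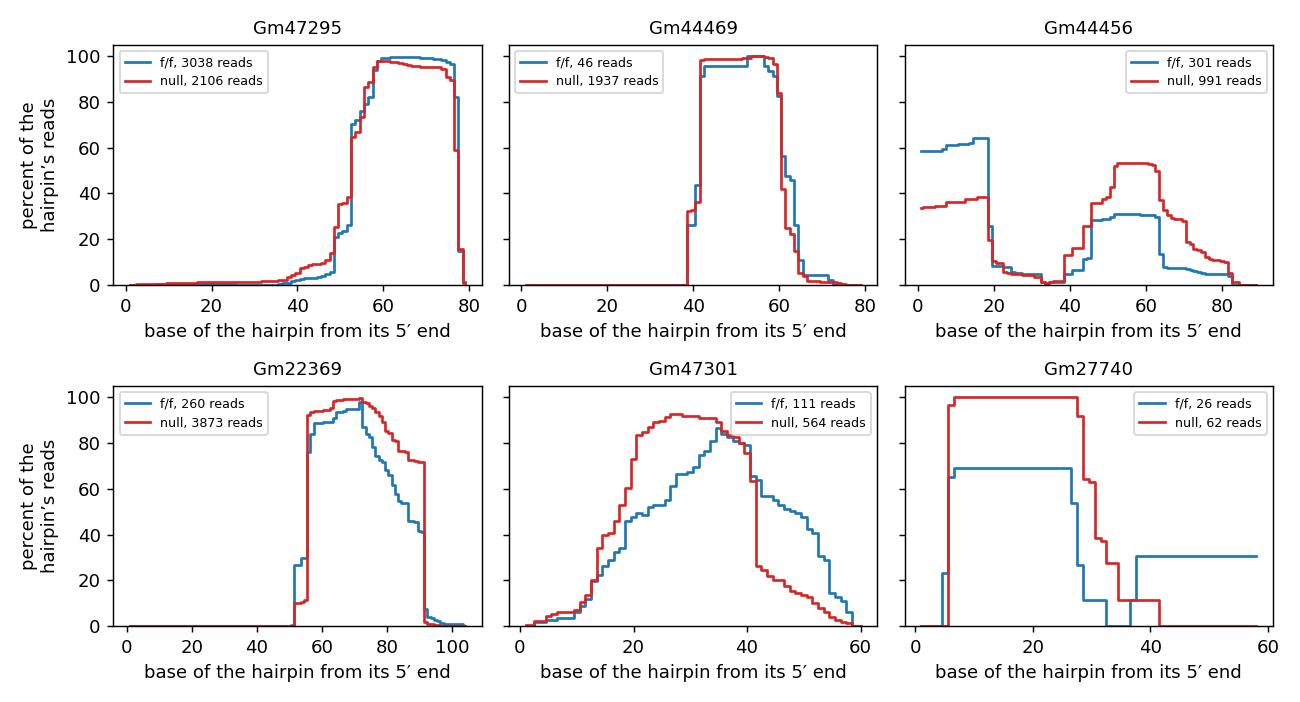
Percent of a hairpin's reads that cover each base, counted from the 5′ end of the leading hairpin, for 6 families, f/f in blue and null in red, with the number of reads in each legend. Reads of Gm47295, Gm44469 and Gm22369 pile up on 1 side, those of Gm47301 shift between the libraries, and Gm27740 has reads on its 3′ arm in f/f (8) and 0 in null.

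Among dispersed copies, the Gm22369 family had the most reads. Its 19 genes on 12 chromosomes had 287 reads in f/f and 4006 in null, or 28.86 and 636.7 CPM (22.06-fold, 19.57 to 24.96). A single 36-nt sequence had 85 reads in f/f and 2689 in null. Of the reads of Gm22369 itself on its 3′ arm, 46.15% in f/f and 80.89% in null began at base 56 of the hairpin. Of the family's reads, 98.25% fitted exons, and the commonest read fitted the exons of 1 gene, Gm42826, at bases 537 to 572 of its 2639-base transcript, which the annotation has not yet assigned as coding or noncoding and which was counted with the lncRNAs. Reads of 21 to 23 nt numbered 76 in f/f and 417 in null. Among reads of 18 to 23 nt the log2 ratio was 3.18, against 4.46 for all lengths. The commonest read lies 1 edit from the mature miR-3473a of RefSeq over that miRNA's length. The exact miR-3473a sequence, shown with its seed (bases 2 to 8) in capitals beside a 22-nt read of the family, had 0 reads in f/f and 1 in null.
mmu-miR-3473a: tGGAGAGAtggctcagca
Gm22369, 22 nt: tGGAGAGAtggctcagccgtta
The seed letters are the same in both. The 22-nt read had 1 read in f/f and 47 in null.

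Other families of copies had reads that occur in many genes. The Gm23638 family, with 55 genes on 17 chromosomes, had 182 reads in f/f and 690 in null (18.3 and 109.7 CPM, 5.992-fold, 5.082 to 7.095), and its commonest read of 19 nt occurs in exons of 978 genes. Of its reads, 53.78% fitted a small noncoding RNA, most often the predicted Gm25574. The Gm25190 family, with 13 genes, had 96 and 392 reads (6.454-fold, 5.151 to 8.154), of which 89.14% fitted a small noncoding RNA, most often the predicted Gm27956, and its commonest read occurs in exons of 167 genes. The 3 genes of Gm27773 had 68 and 161 reads (3.742-fold, 2.802 to 5.045, and a log2 ratio of -0.22 on the snoRNA and snRNA scale), and its commonest read occurs in exons of 198 genes. For 8 of the 33 families, exons of 100 or more genes held the commonest read, and up to 1900 did. Such reads cannot be placed at one locus, and no repeat annotation was used here. The Gm22690 family, 63 genes with a CA-repeat read, had 32 reads in f/f and 27 in null, with an interval of the ratio from 0.7686 to 2.298, and the Gm22475 family, with 43 genes, had 2 and 20 reads.

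A further family of copies went the other way. The Gm22029 family, with 45 genes on 14 chromosomes, had 42 reads in f/f and 7 in null (4.224 and 1.113 CPM), 3.796-fold lower (1.69 to 10.02). In f/f, 34 of the 42 reads had 21 to 23 nt, and its commonest read of 22 nt had 33 reads in f/f and 0 in null. That read occurs in exons of 114 genes, so it cannot be placed at one locus. The 7 null reads all had 24 to 35 nt.

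Gm22196 was the second of the 3 lower families. It had 48 reads in f/f and 0 in null, at least 10.12-fold lower by the limit of 3 reads. Of the 48, 40 had 21 to 23 nt and 81.25% (67.37 to 91.05) began at base 66 of the hairpin. Its commonest read of 22 nt had 29 reads and is 1 edit from miR-1187 of RefSeq, whose own sequence had 12 reads in f/f and 0 in null. The read fitted exons of 6 genes.
mmu-miR-1187: tATGTGTGtgtgtatgtgtgtaa
Gm22196, 24 nt: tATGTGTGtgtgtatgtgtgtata
The 24-nt read of Gm22196 has the seed of miR-1187 and had 7 reads in f/f, while the 22-nt read starts 1 base later and so has another seed.

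The Sfmbt2 intron, which holds a long cluster of repeated miRNA genes, gave the third lower family. Gm24315 and Gm24761 (chr2:10482612-10482738, +) had 19 reads in f/f and 4 in null, 3.005-fold lower, with an interval (0.9988 to 12.15) that includes 1. Of the f/f reads, 63.16% (38.36 to 83.71) began at base 20 of the hairpin and all lay on the 5′ arm. Between them lies Gm25451 (chr2:10480365-10480485, +), with 0 reads in f/f and 10 in null, at least 5.268-fold higher by the limit of 3 reads. Of those 10 reads, 7 were 1 sequence of 36 nt. The commonest reads show the likeness of these neighbours, with bases 2 to 8 in capitals.
Gm24315, 24 nt: tTGCATGTgtgtatagttgtgtgc
Gm25451, 36 nt: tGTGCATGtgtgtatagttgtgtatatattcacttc

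Gm27740 and Gm27775 are the members that RefSeq lists as a named miRNA, miR-6967. Their 58-base hairpins are identical, in introns of Kifc1 and of Kifc5b (chr17:26920962-26921019, +). The family had 26 reads in f/f and 62 in null (2.615 and 9.854 CPM, 3.769-fold, 2.349 to 6.209), and its reads fitted no other class. Without the last 3 bases, a further 61 reads in f/f and 16 in null fitted these hairpins. The commonest of them had 14 reads in f/f and 0 in null, and its matched part ends at base 56 of the 58. The ratio, arm counts and lengths given here are of exact reads only and depend on that match. The mature sequences from RefSeq (GRCm38.p6) are shown with their seeds in capitals, below them a long read of the null library.
mmu-miR-6967-5p: cAGGGAGGgataaagaccagt
mmu-miR-6967-3p: tCATCTTTatctctccccag
Gm27740, 36 nt: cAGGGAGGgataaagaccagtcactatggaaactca
Both arms were read in f/f, with 18 reads on the 5′ arm and 8 on the 3′ arm. In null the 5′ arm had 62 reads and the 3′ arm 0. The 5′ end stayed in place: 61.11% (35.75 to 82.7) of the 5′ arm's reads in f/f and 96.77% (88.83 to 99.61) in null began at base 6, the start of miR-6967-5p. The lengths differed. In f/f, 23 of 26 reads had 21 to 23 nt (88.46%, 69.85 to 97.55), and in null 22 of 62 did (35.48%, 23.74 to 48.66), while 33 had 24 to 35 nt and 7 had 36 nt. The 36-nt sequence above, which reaches base 41 of the 58, had 0 reads in f/f and 7 in null. The read of 22 nt that begins at base 6 had 7 reads in f/f and 5 in null.

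Gm28033 (chr17:35868302-35868397, −), opposite an exon of Ppp1r18, also had reads of Dicer length. Of 7 f/f reads, 6 lay on the 3′ arm and 1 on the 5′ arm, whereas all 14 null reads lay on the 5′ arm. In f/f 7 of 7 and in null 12 of 14 reads had 21 to 23 nt. The ratio was 3.161 (1.194 to 9.254).
Gm28033, f/f, 3′ arm: gAGGCCTGctctgagcctccgcc
Gm28033, null, 5′ arm: gGAGGGCCcagagcagaggttct

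Other families without another class looked different. Gm23935, 6 genes of which Gm23935, Gm24245 and Gm24270 each hold 25 f/f and 230 null reads, had 25 reads in f/f and 234 in null over the family (2.514 and 37.19 CPM, 14.79-fold, 9.775 to 23.33). Its reads covered both arms (13 and 12 in f/f, 106 and 124 in null), and the commonest start held 27.42% or less of an arm's null reads. Beside its copy Gm24245 on chromosome 4 lies Gm25732 (chr4:139338206-139338265, +), a family of its own, which had 2 reads in f/f and 18 in null (14.22-fold, 3.406 to 126.4). A set of 45S rRNA sequences was not used here, so a fit to that RNA was not tested. Gm23634, in an exon of Stmn1, had 3 and 21 reads. Gm25745, in an exon of Hsp90b1, had 5 and 21 reads but belongs to the exon group, since its reads fitted that mRNA.

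Genomic place and folding were not used by the rule. Of the 294 members, 139 (47.28%) were intergenic, 66 (22.45%) lay in an intron on the host's strand and 63 (21.43%) in an intron on the other strand. Of the 386 Mir hairpins with 10 or more reads, 210 (54.4%) lay in an intron on the host's strand and 18 (4.663%) on the other. An exon on the same strand held 25 Gm members (8.503%) and 95 Mir hairpins (24.61%). The members' predicted folding energy had a median of -0.305 kcal/mol per base (quartiles -0.357 and -0.276), beside -0.425 (-0.481 and -0.382) for those Mir hairpins. Members of 1 family share sequence, so these are not independent values.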

How the data were processed

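The authors deposited raw counts, per the files' columns: each file lists distinct read sequences and the number of times each was observed. The build named is mm9, per the submitters' processing notes; how adapters were trimmed is not given in the sources used here. Groups follow the genotype label, with 1 library each; the second library's title ends in a number whose meaning is not stated. The members and lists were chosen with earlier results of these data known.

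Reads of 18 nt or more were matched in sense, whole and without mismatch, to GENCODE M21 transcripts (GRCm38); reads within a Mir hairpin were left out, and a read that fitted several members counted for each, but once in sums. Members sharing at least 50% of the smaller one's reads formed a family. Other classes were rRNA, tRNA, snoRNA, snRNA, other and mitochondrial small RNA, and exons of mRNAs, lncRNAs or pseudogenes. The tRNA class held only genes of the biotype miRNA with a tRNA name, which are few. A full tRNA set, 45S rRNA, the genome and repeats were not used here. Sequences of named miRNAs are from RefSeq (GRCm38.p6), which held 2 of the 294 members. The sequences of some hairpins are not reported here.

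Named in full are families with 100 or more reads and the genes nearest the threshold; smaller families were named after their values were seen. CPM used all reads of a file. Ratios have the exact conditional interval of a pair of counts and shares the Clopper-Pearson interval, at 95%; reads are not independent molecules. As a check of the code only, 400 of 400 reads cut from these same hairpins were matched, and 0 of 400 shuffled reads. The interval of a simulated ratio held its true value in 97%, 97.5% and 96% of draws at fold 0.25, 1 and 4. Those draws had counting error alone, so they do not cover reads that are not independent. Python 3.11.15, numpy 2.4.6, scipy 1.17.1, edlib 1.3.9.post1, RNAfold 2.7.2 and matplotlib 3.10.9 were used. Alternatives changed the scale, length window, read minimum, matching, copy minimum and reads kept.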

Additional observations from a re-analysis of the deposited data

Results flagged for a closer look

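Reads antisense to the members lie outside the sense reads used above. They stood at 24.5 CPM (244 reads) in f/f and 111 CPM (701 reads) in null, above the limit of 3 counts (0.302 and 0.477 CPM). They fitted 11 of the 33 families. The Gm23638 family had most of them, 106 in f/f and 385 in null, followed by Gm25190 in null (33 and 91). Gm47295, Gm44469, Gm44456, Gm47301 and Gm27740 had 0 antisense reads in both libraries. Gm22196, with 0 sense reads in null, had 0 antisense reads in f/f and 9 in null.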

How the results depend on the processing

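No paired analysis was possible because each genotype had 1 library. In CPM, the summed log2 ratio (1.99, null over f/f) was 3.75 per transcript-matched read, -0.14 per snoRNA and snRNA read, 2.18 at 18 to 23 nt, 1.65 with the last 3 nt not matched, 2.04 for sequences seen at least 2 times, 1.14 without reads of another RNA class and 3.18 without the Gm47295 family, so it reversed on 1 scale. The count of families more than 2-fold higher (25) was 11 per snoRNA and snRNA read, 10 of the 12 families that a minimum of 100 reads left, and 8 of the 10 left without reads of another class. The count more than 2-fold lower (3) was 1 per transcript-matched read, 8 per snoRNA and snRNA read, 0 at a minimum of 100 reads, 5 with the last 3 nt not matched and 1 without reads of another class.

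The share of reads of 21 to 23 nt in f/f (16.2%) was 14% at the minimum of 100 reads, 40.3% with the last 3 nt not matched, 30.1% without reads of another class and 23.7% without Gm47295. In null (20.3%) it was 65.2% with the last 3 nt not matched, where CCA-ended reads of Gm44456 enter, and 27.3% without reads of another class. In both libraries, leaving the last 3 nt unmatched dropped the reads of 18 to 20 nt, so its shares cover reads of 21 nt or more. Where reads of another class were left out, Gm47295, which overlaps the 7SL gene Rn7s1, still had the most reads of any family. The share fitting another RNA class in f/f (88.5%) was 99.2% with the last 3 nt not matched and 94.5% without Gm47295, and in null (93.4%) 94.4% at the minimum of 100 reads, 98.9% with the last 3 nt not matched and 95.4% without Gm47295. The share at the commonest 5′ end in f/f (48%) was 67.1% with the last 3 nt not matched, 49.8% for sequences seen at least 2 times, 35.4% without reads of another class and 56.2% without Gm47295, and in null (54.5%) 78.8% with the last 3 nt not matched, 41% without reads of another class and 60.9% without Gm47295.

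Among the 10 families with 100 or more reads, 4 log2 ratios reversed: Gm47295 (0.13) was -2.0 per snoRNA and snRNA read and -0.24 with the last 3 nt not matched, and on the former scale Gm47287 (0.94) was -1.19 and Gm27773 (1.90) was -0.22. Another 31 of their values moved beyond the counting interval with the same sign and 17 did not. The cause of these moves was not tested. Depth limits families under 100 reads in all, which are 23 of 33.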
